A study of Drosophila melanogaster with 3 samples.

Results

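The bithorax complex is a stretch of chromosome arm 3R that holds 3 Hox genes, Ubx, abd-A and Abd-B. It was delimited here by the outer annotated ends of Ubx and Abd-B (3R, 16656623 to 16972236, release 6), a length of 315.6 kb or 0.236% of the 6 major arms. Every Phol summit inside these ends was taken: 51 of 10264 in the reproducible list, 139 of 30000 in the list from pooled reads, and 134, 121 and 130 of 30000 in replicates 1, 2 and 3. The summits come from chromatin immunoprecipitation and sequencing of Drosophila melanogaster embryos of both sexes, aged 0 to 16 hours. All embryos came from a transgenic line whose Phol carries green fluorescent protein at the C terminus, and the precipitating antibody recognises that tag. The 3 replicates form a single group with no comparison group among the lists, so the values below are descriptions without a test of conditions. The reproducible list is the subset of pooled peaks that passed the authors' threshold for an irreproducible discovery rate, and the signal value served only to rank peaks within a list. Percent rank means the rank of a peak as a percent of its replicate's list, so that a low percent is a strong peak.

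Ubx, abd-A and Abd-B encode homeodomain transcription factors that give the posterior thoracic and abdominal segments their identity. Long cis-regulatory regions around and between the genes switch each of them on in particular segments. Elsewhere they are kept off by Polycomb group proteins, which are brought to DNA elements named Polycomb response elements. Phol and its paralog Pho are the DNA-binding members of the Polycomb group that form a complex with Sfmbt and recognise a site with the core GCCAT. The regulatory regions are also transcribed into long noncoding RNAs, among them lncRNA:bxd between Ubx and abd-A and lncRNA:iab8 between abd-A and Abd-B. The annotation used here gives transcripts but no positions of Polycomb response elements or domain boundaries, so no summit is assigned to one.

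Sites are named below by the distance of their summit from the 3′ end of Ubx, the left end of the complex. The 3 Hox genes are transcribed from right to left on this scale. The following windows, each 50 bases to either side of the summit, show 7 of the 8 strongest reproducible summits and the only summit at an Abd-B start (the 303.9-kb site), and are printed because they hold the words counted further below. They are the plus strand of release 6, from the RefSeq genome file. Capitals mark GCCAT or its reverse complement ATGGC, extended to 8 bases where the word is GCCATNTT or its reverse complement.
46.4-kb site, chr3R:16702972-16703072: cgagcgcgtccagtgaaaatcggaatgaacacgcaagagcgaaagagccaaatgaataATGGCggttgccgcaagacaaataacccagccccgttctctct
107.6-kb site, chr3R:16764142-16764242: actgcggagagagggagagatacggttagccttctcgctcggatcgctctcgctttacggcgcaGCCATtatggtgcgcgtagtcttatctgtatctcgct
155.3-kb site, chr3R:16811864-16811964: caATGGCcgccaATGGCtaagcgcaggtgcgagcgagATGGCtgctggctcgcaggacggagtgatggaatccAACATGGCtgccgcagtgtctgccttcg
173.6-kb site, chr3R:16830158-16830258: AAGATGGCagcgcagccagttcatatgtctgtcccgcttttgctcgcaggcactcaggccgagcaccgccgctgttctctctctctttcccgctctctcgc
212.9-kb site, chr3R:16869491-16869591: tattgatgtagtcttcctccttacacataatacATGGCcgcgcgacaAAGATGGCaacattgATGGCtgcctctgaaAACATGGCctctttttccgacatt
226.0-kb site, chr3R:16882609-16882709: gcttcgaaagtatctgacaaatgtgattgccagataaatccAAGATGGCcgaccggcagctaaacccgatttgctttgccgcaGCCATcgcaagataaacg
243.3-kb site, chr3R:16899907-16900007: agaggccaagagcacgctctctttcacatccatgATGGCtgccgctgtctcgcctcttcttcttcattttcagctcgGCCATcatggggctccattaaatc
303.9-kb site, chr3R:16960426-16960526: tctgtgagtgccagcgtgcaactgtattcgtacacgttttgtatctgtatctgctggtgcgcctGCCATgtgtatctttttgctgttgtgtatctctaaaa

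Phol summits were spread over the whole complex, and the strong ones stood mostly in introns of the Hox genes or of the genes annotated between them. The strongest summit of the complex lay between abd-A and Abd-B at 212.9 kb (3R, 16869280 to 16869845), in introns of lncRNA:iab8 and of MSAmiP, a protein-coding gene on the same strand. It had rank 17 in the reproducible list and ranks 12, 20 and 17 in replicates 1, 2 and 3. The second lay inside Abd-B at 292.1 kb, with ranks 49, 55 and 63 in the replicates. The third lay inside abd-A at 155.3 kb (3R, 16811644 to 16812159), with ranks 57, 88 and 84. These 3 sites were among the strongest 100 reproducible peaks of the genome. Of those 100 peaks, 16 were more than 500 bp from every annotated start, and the 3 sites were among these 16.

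**Figure D1:**
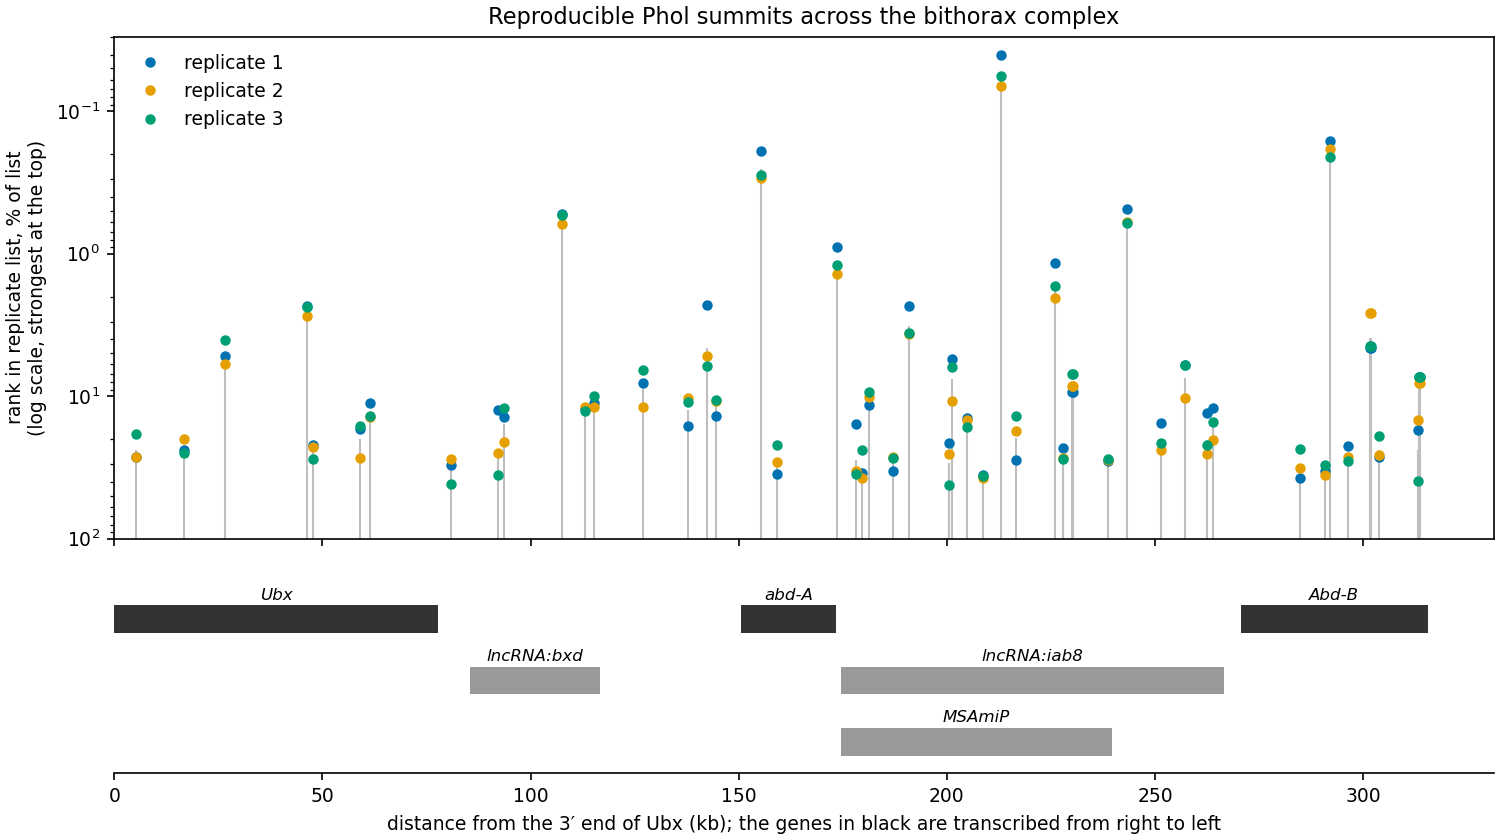
Percent rank in each of the 3 replicate lists (log scale, strongest at the top) of the 51 reproducible summits, against distance from the 3′ end of Ubx in kb, with gene extents drawn to scale below. Grey stems reach to the mean of the replicates; the 212.9-kb site stands highest in every replicate, at 0.0400%, 0.0667% and 0.0567%.

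Strong summits were more frequent in the complex than in the list as a whole. Of the 51 summits, 9 were among the strongest 1000 reproducible peaks (17.6%, 95% exact binomial interval 8.40 to 30.9), against 9.74% of all reproducible peaks. The share of all peaks lies inside this interval. Neighbouring summits of 1 region are not independent, and this and the other intervals cover counting error only. Of the 51 summits, 7 were among the strongest 500 (13.7%, 95% exact binomial interval 5.70 to 26.3), against 4.87% of all reproducible peaks. The strength of the other summits varied over the whole list: 26 of the 51 had ranks up to 5132, the middle of the reproducible list, and 25 had lower ones. The median percent rank of the 51 summits was 12.5% in replicate 1, 14.0% in replicate 2 and 12.8% in replicate 3, a mean of 13.1% ± 0.790 (SD, n = 3), against 16.1% ± 0.0495 for all reproducible summits found in the 3 lists. The difference exceeded the spread between replicates, but that spread does not cover errors of matching. The summits at 230.3, 301.9 and 313.7 kb had ranks of only 9709, 8653 and 6639 in the reproducible list. In matching they took the percent ranks of stronger neighbours within 250 bp, which lowers the median of the complex. Neither median was recomputed without such pairs, so the size of the difference is uncertain. The value for the complex depends on the distance within which a peak counts as the same: with 100 bp its mean was 15.8%. The value for all summits was not recomputed at 100 bp, so the difference at that distance is not known.

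The strongest sites held nearly the same order in the replicates. After the top 3 came 2 sites with ranks 169 and 170, at 107.6 kb and 243.3 kb. The 107.6-kb site (3R, 16763919 to 16764442) lay in an intron of lncRNA:bxd, the noncoding gene upstream of Ubx, 29766 bp from the Ubx start. It had ranks 157, 187 and 160 in replicates 1, 2 and 3. The 243.3-kb site (3R, 16899682 to 16900195) lay 125 bp upstream of a start of lncRNA:iab8 and had ranks 146, 180 and 183. The ranks of these 2 sites overlap, and which is higher differs between replicates.

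The next site, at 173.6 kb (3R, 16830025 to 16830402), was the only one of the 12 at a start of a Hox gene, with its summit 159 bp upstream of the outermost abd-A start. It had ranks 268, 419 and 359 in replicates 1, 2 and 3. The 226.0-kb site, in an intron of lncRNA:iab8, had ranks 349, 616 and 508. The strongest summit inside Ubx, at 46.4 kb (3R, 16702817 to 16703234), had ranks 696, 815 and 714. Each replicate placed these 3 sites in this order. The next sites were less steady: the 142.3-kb site between Ubx and abd-A had rank 691 in replicate 1 but 1579 and 1831 in replicates 2 and 3, and the 301.7-kb site inside Abd-B had rank 785 in replicate 2 but 1386 and 1331 in replicates 1 and 3. The 190.8-kb site in lncRNA:iab8 had ranks 698, 1106 and 1085, and the 26.5-kb site in Ubx had 1560, 1795 and 1219.

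**Figure D2:**
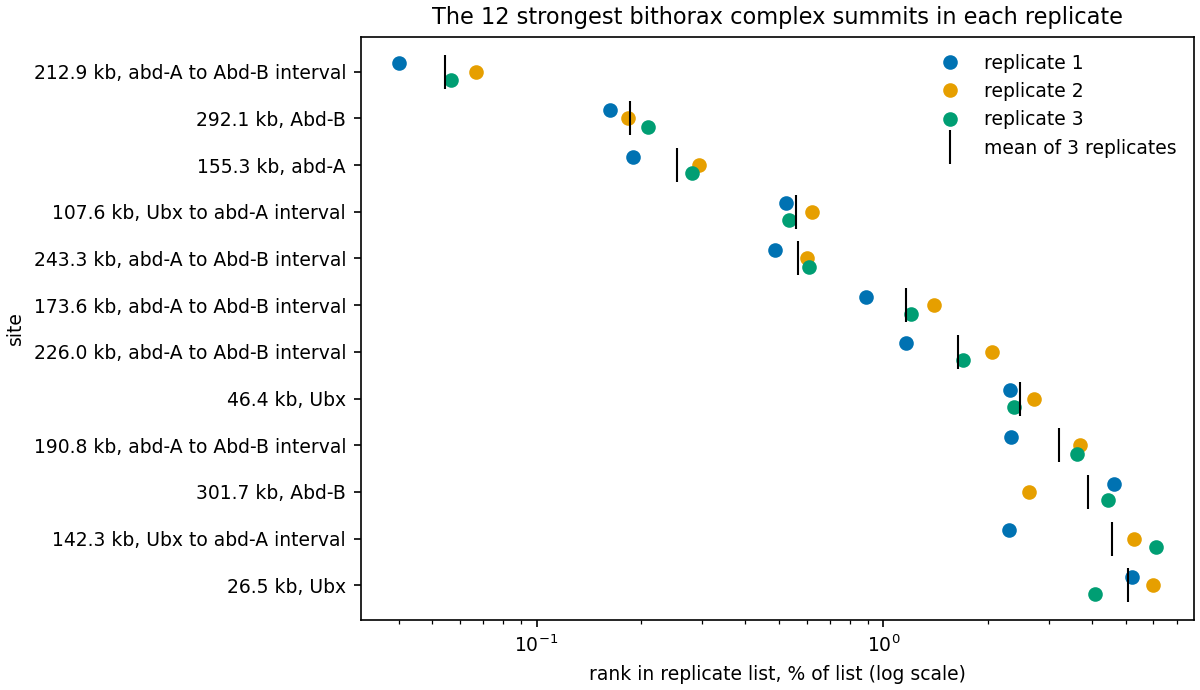
Percent rank in each replicate list (log scale) of the 12 strongest bithorax complex summits, with a tick at the mean of the 3 replicates. The top 3 sites keep their order in every replicate, with means of 0.0544%, 0.186% and 0.254%.

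By gene, the strongest summits formed a graded order from Abd-B to Ubx. The strongest summit of Abd-B, the most posterior gene of the complex, stood at a mean percent rank of 0.186% ± 0.0234 (SD, n = 3), that of abd-A at 0.254% ± 0.0562 and that of Ubx at 2.47% ± 0.214. The intervals between genes stood at 0.0544% ± 0.0135 (abd-A to Abd-B) and 0.560% ± 0.0551 (Ubx to abd-A). Abd-B and abd-A are the neighbours in this order whose replicate values overlap, although each replicate placed the Abd-B summit above the abd-A summit. The other neighbours did not overlap.

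The members differed in how many summits they held and where. Ubx (FBgn0003944, 77.8 kb) had 7 reproducible summits, all intronic: 5 in the third intron of its longest transcript, which is 51488 bp long, and 2 in the second, of 14643 bp. After the 46.4-kb site, the 26.5-kb site was the strongest in the third intron and the 61.5-kb site, with ranks 3370, 4200 and 4176 in replicates 1, 2 and 3, the strongest in the second. The other 4, at 5.3, 16.7, 47.8 and 59.1 kb, had mean percent ranks of 20.1% to 24.1%. Ubx thus held 1 strong site, 1 intermediate site and a group of weaker ones. Replicates 1, 2 and 3 had 7, 7 and 8 summits in Ubx among their strongest 10264 peaks. The single annotated Ubx start had no summit nearby. The nearest one lay 3053 bp upstream, at 80.9 kb, and was weak, with ranks 9158, 8281 and 12331 in the replicates. Of protein-coding genes in the genome, 40.8% had a reproducible summit within 500 bp of a start, and 2 of the 3 Hox genes of the complex did.

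The shortest of the 3 genes, abd-A (FBgn0000014, 22.8 kb), had 2 summits in its body, both in the fourth intron of its longest transcript. Besides the strong 155.3-kb site there was a weak one at 159.3 kb with ranks 10585, 8646 and 6640 in replicates 1, 2 and 3. Of the 3 annotated start positions of abd-A, 2 lay within 500 bp of the 173.6-kb summit. It is the gene with the strongest promoter summit of the 3.

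Abd-B (FBgn0000015, 45.0 kb) had 10 summits, and the replicates had 8 each among their strongest 10264 peaks. In the longest transcript, 9 lay in the first intron, of 28459 bp, and 1 in the second, the weak 284.9-kb site with ranks 11252, 9581 and 7089 in replicates 1, 2 and 3. A cluster of 3 summits stood between the 2 outermost starts, at 313.1, 313.5 and 313.7 kb, the nearest 1129 bp from a start. The strongest of them, the 313.5-kb site, had ranks 2200, 2430 and 2216 and varied little. Of the 6 start positions of Abd-B, 1 had a summit within 500 bp, at 303.9 kb, 195 bp upstream of a start used by 1 of the 10 annotated transcripts. That summit was weak, with ranks 7971, 7812 and 5705 in replicates 1, 2 and 3. The strong 292.1-kb site lay in the first intron of the longest transcript. The density was 22.2 summits per 100 kb of Abd-B, against 9.0 in Ubx and 8.76 in abd-A. It counts separately the summits at 301.7 and 301.9 kb and those at 313.5 and 313.7 kb, although each pair shares its replicate peaks. By number of summits in the gene body, Abd-B stood 46th, Ubx 87th and abd-A 553rd among 13945 protein-coding genes, ties sharing the higher place, and long genes have more room for summits.

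The intervals held 32 of the 51 summits, and most of these lay in noncoding transcripts, which also cover much of the intervals. Between Ubx and abd-A (72.8 kb) there were 10 summits: 5 in introns of lncRNA:bxd, 2 at starts of the noncoding genes lncRNA:CR44945 and lncRNA:TS16, and 3 in no annotated gene. Of the 72787 bp of this interval, lncRNA:bxd spans 31065 bp. The bxd summits other than the strong 107.6-kb site had mean percent ranks of 11.1% to 24.5%. The site at the start of lncRNA:CR44945 (126.9 kb) had ranks 2441, 3595 and 1954 in replicates 1, 2 and 3, and the site at lncRNA:TS16 (144.6 kb) had 4142, 3257 and 3176. The nearby noncoding gene lncRNA:CR45750 and, inside Ubx, the antisense gene asRNA:PS4 had no summit within 500 bp of a start. Glut3, a glucose transporter gene, and CG31275 are protein-coding genes in this interval, and neither had a summit within 500 bp of its start. Between abd-A and Abd-B (97.2 kb) there were 22 summits, a density of 22.6 per 100 kb, close to that inside Abd-B. Of these, 21 lay within lncRNA:iab8 and 1 upstream of abd-A, and 16 of the 21 lay also within MSAmiP. Of the 97162 bp of this interval, lncRNA:iab8 spans 92116 bp and MSAmiP 65179 bp, so most positions in it lie within these genes. Besides the sites described above, 3 sites of this interval had mean percent ranks under 10%: the 257.1-kb site at 7.48% ± 2.48 (SD, n = 3), the 201.3-kb site at 7.56% ± 2.91, and the paired summits at 230.1 and 230.3 kb, which share replicate peaks, at 8.29% ± 1.24. The other summits of the interval ranged between 10.4% and 36.5%. This interval therefore held the strongest site of the complex and also its weakest. A single summit lay within lncRNA:CR43617, which runs against lncRNA:iab8, at 238.6 kb with a mean of 28.1% ± 0.492. The microRNA genes mir-iab-8 and mir-iab-4, annotated on opposite strands of the same bases, had no summit closer than 863 bp to a start, and lncRNA:iab4 had none within its body. The genes next to the complex on either side, modSP and VhaM9.7-d, had no summit within 500 bp of their starts, the nearest at 667 bp and 4903 bp.

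Summits of the complex rarely lay at starts of transcripts. Of the 51, 5 were within 500 bp of an annotated start (9.80%, 95% exact binomial interval 3.26 to 21.4), against 49.5% of all reproducible summits. The share was 10.5% ± 0.340 (SD, n = 3) over the strongest 10264 peaks of the replicates, against 49.8% ± 2.97 for all such peaks. These 5 sites belong to abd-A, Abd-B, lncRNA:CR44945, lncRNA:TS16 and lncRNA:iab8. With starts of protein-coding genes only, 2 of the 51 remained (3.92%), against 47.1% of all reproducible summits. Of the other summits, 17 lay in introns of the Hox genes, 25 in introns of other genes, 3 between genes, and 1 in an exon of lncRNA:CR46267, a noncoding gene inside Abd-B. The complex holds fewer start positions than the arms as a whole, with 10.8 per 100 kb against 17.3.

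The density of summits was above that of the rest of the genome, and all of the excess lay away from starts. The complex had 16.2 reproducible summits per 100 kb, against 7.65 on the remaining sequence of the 6 arms, a ratio of 2.11. Over the strongest 10264 peaks of each replicate the density was 15.1 ± 0.484 per 100 kb (SD, n = 3), against 7.65 ± 0.00114, a ratio of 1.97 ± 0.0636. For summits more than 500 bp from a start the reproducible list gave 14.6 against 3.85 per 100 kb, a ratio of 3.79, and the replicates gave ratios of 3.53 ± 0.107. For summits at starts the ratio was 0.417, and 0.416 ± 0.0255 over the replicates. These differences from the rest of the arms exceeded the spread between replicates in each class.

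The Antennapedia complex, the other Hox cluster of the fly, lay between these values. From lab to Antp (3R, 6661427 to 6999228) it had 39 reproducible summits, 11.5 per 100 kb. Over the replicates its density was 11.7 ± 1.37 per 100 kb (SD, n = 3), against 15.1 ± 0.484 in the bithorax complex, and the replicate values of the 2 clusters did not overlap. Away from starts the values were 13.5 ± 0.484 per 100 kb in the bithorax complex and 9.57 ± 1.20 in the Antennapedia complex, again without overlap between replicates. At starts the Antennapedia complex had 8 of its 39 reproducible summits. Over the replicates this class had 2.17 ± 0.171 per 100 kb there, against 1.58 in each replicate in the bithorax complex. The arms outside the bithorax complex had 3.82 ± 0.228, so a low density at starts was shared by both Hox clusters.

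**Figure D3:**
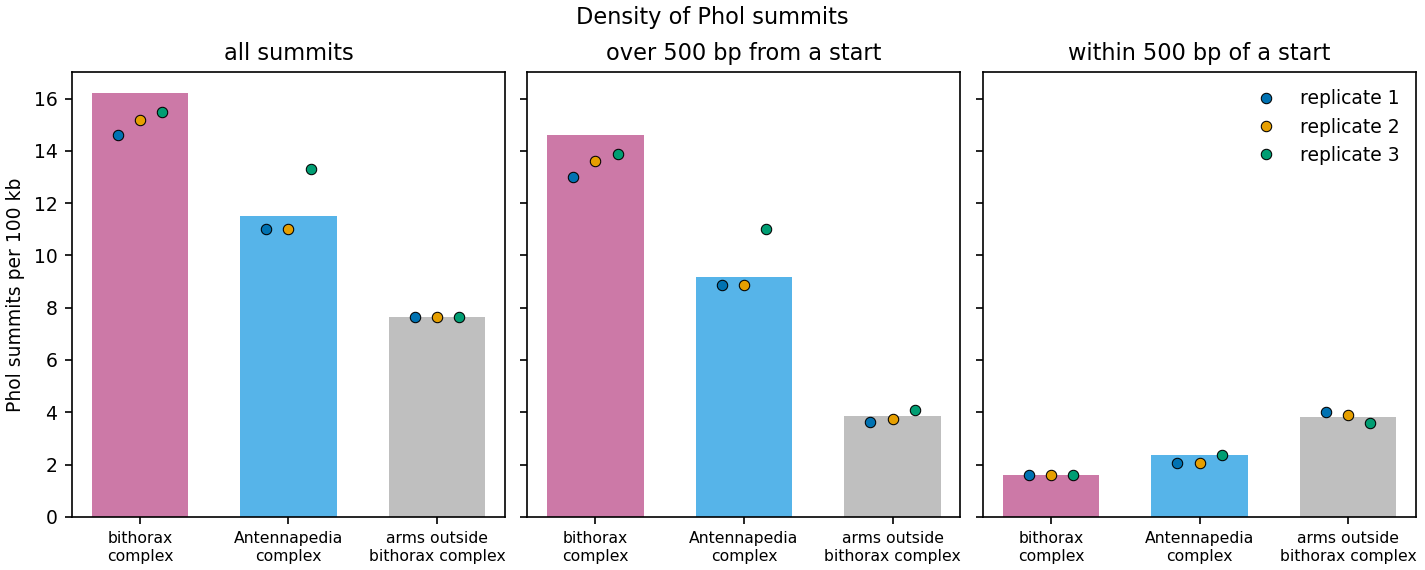
Phol summits per 100 kb in the bithorax complex, the Antennapedia complex and the arms outside the bithorax complex, for all summits, those over 500 bp from a start and those within 500 bp of a start. Bars are the reproducible list and points the strongest 10264 peaks of each replicate; in the middle panel the bithorax bar is at 14.6 and that of the arms at 3.85.

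Stretches of more than 30 kb without a summit were absent from the complex in the reproducible list. The median distance between neighbouring reproducible summits was 4534 bp, close to 4719 bp over all arms, while the mean distance was 6167 bp against 12437 bp. Of the 50 distances in the complex, 0 exceeded 30 kb, against 8.43% of all distances on the arms. Distances over 10 kb were nearer the overall share, with 11 of 50 (22.0%) against 28.1%. Of the 50, 5 were under 1 kb, against 14.3%. Over the strongest 10264 peaks of replicates 1, 2 and 3 the longest distance was 27020, 20990 and 32149 bp, so that 1 replicate exceeded 30 kb. In the reproducible list the longest stretch without a summit, 20958 bp, ran from lncRNA:iab8 into the 3′ part of Abd-B, and the next, 19936 bp, lay in the third intron of Ubx. The Antennapedia complex had a stretch of 52189 bp without one, and 52204 to 52270 bp in the replicates. The 9 summits of the strongest 1000 stood 13118 to 61170 bp apart, with a median of 20228 bp.

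The replicates found the same sites in the complex. All 51 summits had a peak within 250 bp in every full replicate list (100%, 95% exact binomial interval 93.0 to 100), against 97.9% of all reproducible summits. In the strongest 10264 peaks of every replicate there were 41 (80.4%, against 80.1%). The reproducible list was itself made from the pool of these replicates. Matched replicate summits lay a median of 7.0 bp from the reproducible summit, and 111 of the 153 matches were within 20 bp. In 3 pairs of summits closer than 250 bp (at 230.1 and 230.3, 301.7 and 301.9, and 313.5 and 313.7 kb), both summits matched the same replicate peaks, so their ranks are not separate measurements. Some ranks differed widely between replicates: the 313.1-kb site in Abd-B had rank 11810 in replicate 3 against 5167 and 4440 in replicates 1 and 2, and the 92.1-kb site in lncRNA:bxd had 3747, 7536 and 10803.

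Weaker peaks were more numerous. Of the 139 pooled summits in the complex, 51 were in the reproducible list (36.7%), against 34.2% of all pooled peaks. Of the other 88, 37 were found in every replicate list (42.0%, against 48.7% genome-wide). The weakest reproducible summit of the complex, at 208.8 kb, had rank 10012 in the list of 10264. The strongest repeated summit just outside the list lay in abd-A (3R, 16819471 to 16819890) with rank 10414 in the pooled list and ranks 8540, 13621 and 9707 in the replicates.

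The core word of the Phol site was common at these summits, and often present more than a single time. GCCAT, searched on both strands, stood within 50 bp of the summit at 30 of the 51 sites (58.8%, 95% exact binomial interval 44.2 to 72.4), against 19.6% of all reproducible summits and 17.1% of those away from starts. All 9 summits of the complex in the strongest 1000 held it, against 29.5% of the strongest 1000 peaks of the genome. Over the strongest 10264 peaks of the replicates the share was 55.9% ± 1.43 (SD, n = 3) in the complex, against 19.6% ± 1.46 overall. By member, the word was at 4 of 7 summits in Ubx, 2 of 2 in abd-A and 6 of 10 in Abd-B, and at 6 of 10 and 12 of 22 in the intervals beside abd-A, in map order. Every gene and interval thus held summits with the word and, except abd-A, summits without it. In the Antennapedia complex 14 of 39 windows held it (35.9%). The word was also more frequent in the DNA of the complex at large: 26.1% of windows of the same length laid end to end across the complex held it, against 19.7% across the arms, and windows 500 bp from the summits of the complex held it in 34.3%.

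The 212.9-kb and 155.3-kb windows printed above each held 4 matches of GCCAT, as did the weak 159.3-kb site. Of the 51 windows, 17 held at least 2 (33.3%, against 3.27% of all reproducible windows), and 6 held at least 3 (11.8%, against 0.692%). The extended word GCCATNTT, which contains the core, was at 12 sites (23.5%, 95% exact binomial interval 12.8 to 37.5), against 6.63% of all reproducible summits. It was in 2.94% of windows 500 bp from the summits of the complex and in 3.43% of windows laid end to end across it. Over the replicates its share was 23.1% ± 1.97 (SD, n = 3) in the complex, against 6.44% ± 0.913 overall. Among summits of the complex with ranks up to 5132, 9 of 26 held it, against 8.53% of all peaks with such ranks, and among the others 3 of 25, against 4.73%. The strongest site of Ubx held the core and not the extended word. A match describes the letters of a window and is not shown to be bound.

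**Figure D4:**
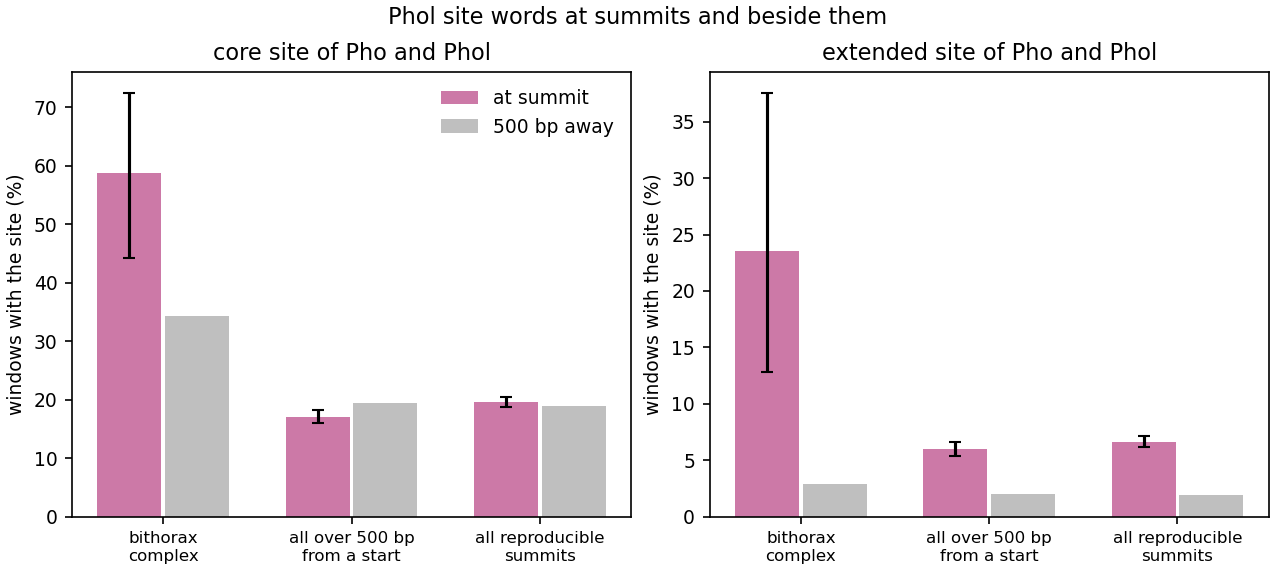
Percent of windows reaching 50 bases to either side with the core and the extended Pho and Phol site, at summits (with 95% exact binomial intervals) and 500 bp to either side, for the 51 bithorax complex summits, all reproducible summits over 500 bp from a start, and all reproducible summits. At the bithorax summits the core was in 58.8% of windows and the extended site in 23.5%.

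Words of other Polycomb response element factors were counted the same way, on both strands and without regard to overlap between words. GAGAG, bound by the GAGA factor and Pipsqueak, was at 13 of the 51 summits (25.5%, 95% exact binomial interval 14.3 to 39.6), against 7.75% of all reproducible summits. Windows 500 bp away held it in 14.7% in the complex, a share inside that interval, and in 13.5% over all reproducible summits. Of windows laid end to end across the complex, 12.1% held GAGAG. It was at 6 of the 9 summits of the complex in the strongest 1000, against 7.90% of the strongest 1000 peaks of the genome. Windows 500 bp from these 9 summits held it in 4 of 18 (22.2%), and those beside the strongest 1000 peaks in 14.9%. The 6 summits include the 107.6-kb site with 4 matches and the abd-A promoter site with 5, overlapping matches included. TGAGTG, a Zeste word, was at 6 summits (11.8%, 95% exact binomial interval 4.44 to 23.9), against 3.27% of all reproducible summits. Windows 500 bp away held TGAGTG in 1.96% in the complex and in 4.95% over all reproducible summits. Of windows laid end to end across the complex, 5.19% held it, a share inside that interval. GTGTGT, a repeat bound by Combgap, was at 3 (5.88%), close to the 5.29% of all reproducible summits.

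The other Hox genes and the Hox cofactor genes differed widely. Of 5 Antennapedia complex genes and 2 cofactor genes, 6 had a reproducible summit in the gene body or 500 bp upstream, against 45.6% of all protein-coding genes, and Scr had none. Dfd, which patterns the head, had its summit 228 bp from its start, at a mean percent rank of 1.48% ± 0.465 (SD, n = 3). Antp, which acts in the thorax, was close to Ubx in its strongest summit: it had 18 summits in its body, and its strongest stood at 2.41% ± 0.535, against 2.47% ± 0.214 for Ubx. The strongest summits of pb and lab stood at 10.4% ± 1.07 and 16.9% ± 3.65. Of the genes for the cofactors that bind DNA with Hox proteins, hth had 16 summits with the strongest at 3.24% ± 0.337, and exd had a weak one 374 bp from a start at 28.7% ± 10.5. The strongest summits of Abd-B and abd-A, at 0.186% and 0.254%, were above those of the 6 genes with a summit in every replicate.

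The genes most like each member were found by the root mean square difference of the log10 percent rank of the strongest summit over the 3 replicates, among 6233 protein-coding genes with a summit found in every replicate. For Ubx these were sgg, which encodes a kinase of the Wingless pathway (difference 0.0176), and CG34056 (0.0193). For abd-A they were RluA-1 (0.0510) and Mi-2, which encodes a chromatin remodeller (0.0616). For Abd-B they were PNPase (0.0156) and CG3847 (0.0307). With 3 replicates this likeness says only that the strongest summits have similar ranks.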

How the data were processed

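The measurements are Phol binding summits in 3 replicates of a transgenic embryo line. The authors deposited 5 peak lists on dm6: 1 per replicate, called with a control alignment, 1 from pooled replicates, and the reproducible list, per the readme notes the authors deposited. Which aligner, peak caller and threshold they used is not given in the sources used here. The deposited signal value of a peak has no stated scale and was used only for ranks within a list. The deposited −log10 q-value was not used. Read depth is unknown. Nothing states whether the replicates were separate embryo collections, so an SD measures the spread between these samples only.

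Summits are the peak start plus the deposited offset, in 1-based coordinates. Genes and starts are from Ensembl release 115, without transposable elements and unnamed features, and bases from the release 6 RefSeq genome. The member genes had the same ends in both annotations, and 20 of 20 of their coding transcripts began with ATG. In the files, the reproducible peaks were the strongest 10264 pooled ones, no peak ran past a chromosome end, and 0 peak rows were identical between replicates. A site matched the strongest replicate peak within 250 bp. Shares carry exact binomial intervals of 95% (Clopper-Pearson; scipy 1.17.1, Python 3.11.15, pandas 2.3.3). No test was run, as the lists form 1 group. Scripts were tested on simulated data. Alternatives changed the list, region, windows, matching distance and replicates. Named are the 12 strongest summits, the strongest per gene and interval, the genes in and next to the complex, the other Hox and cofactor genes, and the genes most like each member. The sequence of 1 strong site is not reported here. A few other sites were named after their values were seen. The members, lists and words were chosen with earlier results of these data known.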

Additional observations from a re-analysis of the deposited data

How the results depend on the processing

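Shares, ratios, ranks and spacings were recomputed in settings other than leaving 1 replicate out, among them the strongest peaks of single replicates. Of these values, 24 stayed within the spread or interval of the reported value and 12 moved. The count of summits in the complex was 139 in the pooled list and 26 among the strongest 5132 reproducible peaks, as the length of the list dictates, and 41 to 65 in the other alternatives. The density ratio stayed above 1 throughout: 1.97 in the pooled list, 1.91, 1.99 and 2.03 in the strongest peaks of replicates 1, 2 and 3, 2.05 with the region extended by 50 kb, and 3.79 for summits more than 500 bp from every start. The share of summits found in every replicate list, 100% also when any 1 replicate was left out, was 80.4% when the lists were limited to their strongest 10264 peaks. The median percent rank was 15.8% with matching within 100 bp and 12.2% within 500 bp, and 12.7% to 13.4% when 1 replicate was left out. The median spacing was 1726 bp in the pooled list, 10659 bp among the strongest 5132 and 4689 bp with summits closer than 250 bp merged. The share at starts ranged from 3.92% (protein-coding starts only) to 15.4% (the strongest 5132 peaks), that of GCCAT from 47.1% to 69.2% and that of GCCATNTT from 15.1% to 34.6%. With 1 of the 3 replicates left out, the mean percent rank of the strongest summit was 2.35% to 2.55% for Ubx, 0.235% to 0.287% for abd-A and 0.173% to 0.197% for Abd-B; such means cannot move far from that of all 3, so they do not test stability. No paired analysis was possible because the samples form 1 group.

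The lists give no read depth, and the control alignment was not analysed here, so signal that would arise without Phol cannot be told apart. In whole embryos, binding in few cells and weak binding in many cannot be told apart either.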

Other observations

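The base composition of the bithorax complex summits differed from that of other Phol summits. G and C made up 42.3% of the bases within 50 bp of the 51 summits, against 33.5% at all reproducible summits and 31.4% at those more than 500 bp from a start. The windows 500 bp away held 39.6% in the complex and 44.2% over all reproducible summits, so that the summits of the complex were richer in G and C than their surroundings and the summits of the whole list poorer. At the 9 strongest summits of the complex the share was 55.0%, against 32.8% at the strongest 1000 peaks of the genome. The part of base composition in the share of GCCAT was not tested.

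The core word was found on the minus strand, which is the strand of transcription of Ubx, abd-A and Abd-B, in 38 of its 56 matches within 50 bp of the summits, and on the plus strand in 18. Several of these matches share a window. Strands were not counted at summits elsewhere, so there is no share to set beside this split. A relation to the strand of transcription was not tested. All 5 summits at starts held the core word, and 25 of the 46 others did. Of all reproducible summits 19.6% held it, and of those more than 500 bp from a start 17.1%. A contrast between starts and other places that rests on 5 sites was not tested.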
